A study of Mus musculus with 8 samples.

Results

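The genes described here encode the subunits of oxidative phosphorylation, read in CD44+ CD4+ T cells of mice that lacked T-bet, STAT6 or both. They were chosen by symbol: Nduf followed by a, ab, b, c, s or v and a digit, Sdha to Sdhd, symbols that begin with Uqcr, Cox4 to Cox8 or Atp5, and Cyc1 and Cycs. The rule found 81 of the 11841 symbols of the expression table, each on 1 line. Of these, 36 belong to complex I, 4 to complex II, 9 to complex III, 1 is cytochrome c, 14 belong to complex IV and 17 to complex V. The rule also takes in 4 genes whose products are not stable subunits. Cox4nb, now named Emc8, is part of the membrane protein complex of the endoplasmic reticulum. Cox7a2l is a factor that joins respiratory complexes into supercomplexes. The others are Atp5s and Atp5sl, named Dmac2l and Dmac2 in RefSeq and counted with complex V by their symbols. Ndufa4 carries a complex I symbol and is now placed with complex IV. The subunits that the mitochondrial genome encodes were not analysed here.

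Complexes I and II pass electrons from NADH and succinate to ubiquinone, complex III passes them to cytochrome c, and complex IV passes them to oxygen. Complexes I, III and IV pump protons across the inner mitochondrial membrane, and complex V, the ATP synthase, lets them flow back and makes ATP. Activated T cells raise glycolysis strongly and still depend on mitochondrial respiration, which memory T cells use for their long life and rapid recall.

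RNA came from CD44+ CD4+ T cells, helper T cells that have met antigen, of lymph nodes that drain the skin. All mice were of the BALB/cAJcl strain, and all cells had been exposed to PMA and ionomycin for 2 h, so no resting cells enter any comparison. The 4 genotypes were T-bet-/- (here T-bet-null), STAT6-/- (STAT6-null), T-bet-/- STAT6-/- (double-null) and WT, with 2 libraries each. T-bet drives Th1 development, while STAT6 relays IL-4 and IL-13 signals in Th2 development. The deletions are named without a promoter or cell type that drives them, and neither age nor number of mice is stated. No label states whether the paired libraries of a genotype had different mice as their source, so the p-values below measure only the spread between these libraries, which may be technical.

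Tbx21, the gene of T-bet, stood at 1.44 and 1.54 FPKM in T-bet-null, 102 and 92.1 in STAT6-null, 2.49 and 2.09 in double-null and 30.8 and 31.6 in WT libraries. Stat6 stood at 88.8 and 89.8 FPKM in T-bet-null, 31.6 and 28.99 in STAT6-null, 29.6 and 26.9 in double-null and 89.9 and 90.9 in WT libraries. For each targeted gene the 4 libraries that should lack it lay below the 4 that should not. All 8 markers of CD4 T cells were present, with a summed level of 1762 to 1968 FPKM in the mutant and 1978 to 2010 FPKM in the WT libraries. Single markers differed more than this sum: Cd4 had 88.1 to 127 FPKM in the mutant and 195 to 208 FPKM in the WT libraries, and Cd3d, Cd3e, Cd3g and Cd28 were also lower in every mutant library than in both WT libraries. Cd44 and Lat were higher in every mutant library, with 355 to 442 and 475 to 660 FPKM in the mutant against 250.8 to 282 and 438 to 467 FPKM in the WT libraries. The B cell markers summed to 1.78 to 6.96 FPKM in the mutant and 3.64 to 6.19 FPKM in the WT libraries (5 of 6 genes in the table), and the single CD8 marker found, Cd8b1, stood at 3.02 to 4.46 and 4.90 to 5.60 FPKM in the mutant and WT libraries. Myeloid markers (4 of 8) summed to 53.1 to 56.2 FPKM in T-bet-null, 83.1 to 85.9 in STAT6-null, 69.0 to 86.8 in double-null and 73.5 to 82.5 in WT libraries. Against WT, Lyz2 and Cst3 were lower in both T-bet-null libraries, and Cd68 and Fcer1g were higher. The NK marker Klrk1 stood at 0.546 to 1.32 FPKM in the mutant and 0.490 to 0.820 FPKM in the WT libraries, and 0 of 4 mast cell genes had a line. Erythroid markers and the endothelial marker Pecam1 were higher in WT. The erythroid genes Hba-a1 and Beta-s (2 of 9 markers in the table) summed to 2.63 to 7.48 FPKM in the mutant and 224 to 442 FPKM in the WT libraries, and the stromal and endothelial genes Pecam1 and Col1a1 (2 of 4) to 8.15 to 11.3 FPKM in the mutant and 24.2 to 26.0 FPKM in the WT libraries. Within that pair Pecam1 stood at 7.57 to 10.3 FPKM in the mutant and 23.9 to 25.8 FPKM in the WT libraries, while Col1a1 stood at 0.381 to 0.993 FPKM in the mutant and 0.222 and 0.223 FPKM in the WT libraries. The part of these markers in the comparisons with WT was not tested. Library sums of the table were 426589 to 475234 FPKM, and the relative depth of the libraries, read from the steps of 503 genes under 0.5 FPKM, was 0.856 to 1.04 times that of WT replicate 1.

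Replicates differed in 1 direction over most of the subunit genes, the most so in double-null and WT cells. Double-null replicate 2 was above double-null replicate 1 in 69 of the 80 genes that passed the filter on low values, with a median log2 difference of 0.14, against 0.041 over all genes tested. WT replicate 2 was above WT replicate 1 in 8 of the 80, with a median of -0.12, against -0.031 over all genes. In T-bet-null and STAT6-null cells replicate 2 was above replicate 1 in 30 and 57 of the 80. The medians between replicates were -0.045 and 0.047, against -0.012 and -0.006 over all genes. Results that rest on 1 of these libraries are therefore given with and without it, except the interaction values of single genes.

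The subunit genes were expressed at high levels. Their median over the 8 libraries was 55.4 FPKM, against 6.80 FPKM over all symbols, and 20 of the 81 averaged over 100 FPKM. Summed, they took 1.23% to 1.43% of the FPKM of a library. FPKM is scaled to transcript length. How far this makes different genes comparable was not tested, so the order below is one of FPKM values. The median was 127.8 FPKM in complex IV, 119.95 FPKM in complex V, 62.6 FPKM in complex III, 32.7 FPKM in complex I and 30.7 FPKM in complex II. The highest of each multi-subunit complex were Atp5b, the catalytic beta subunit of the F1 head (376.8 FPKM), Cox4i1, the ubiquitous form of subunit 4 of complex IV (302 FPKM), Uqcrh, the hinge protein of complex III (226 FPKM), Ndufa4 (129 FPKM in complex I by its symbol) and Sdhb, the iron-sulfur subunit of complex II (54.1 FPKM). The lowest were Atp5s (0.673 FPKM), which missed the filter, Cox6b2, the testis form of subunit 6b (1.06 FPKM), Cox7a1, the heart and muscle form of subunit 7a (2.01 FPKM), Cox4nb (2.92 FPKM) and Ndufa11, a membrane subunit of complex I (5.67 FPKM). Where a tissue form and a common form both had a line, the common form was far higher: Cox6b1 averaged 169.6 FPKM and Cox7a2 55.9 FPKM.

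The promoters of such genes are known for sites of NRF1, of the ETS factor GABPA and of YY1. Sequences are shown for 4 members: Cox6a1, a small subunit of complex IV whose window holds most of these motifs, Uqcrh, the highest of complex III, Ndufa3, which had the largest fall against WT, and Atp5g1, whose pattern differed from that of its paralogs. Cox6a1 and Atp5g1 were chosen after their values or windows were seen. Cox6a1 stood at 182 and 172 FPKM in T-bet-null, 197 and 187 in STAT6-null, 224 and 269 in double-null and 223 and 209.9 in WT libraries, with T-bet-null and STAT6-null libraries below both WT libraries. Each sequence runs 5′ to 3′ on its own strand, 250 bases before to 50 after an annotated start, in build GRCm38.p6. For Ndufa3 and Atp5g1 this start lies inside the gene range given below. Capitals mark matches on either strand to GCGCANGCG (NRF1), CCGGAAG (ETS and GABPA) and GATGGC (YY1, the shorter form), and N is any base. Cox6a1 lies at chr5:115348909-115349208, minus strand, Uqcrh at chr4:116075021-116075320, minus strand, Ndufa3 at chr7:3617123-3617422, plus strand, and Atp5g1 at chr11:96075582-96075881, minus strand.
Cox6a1: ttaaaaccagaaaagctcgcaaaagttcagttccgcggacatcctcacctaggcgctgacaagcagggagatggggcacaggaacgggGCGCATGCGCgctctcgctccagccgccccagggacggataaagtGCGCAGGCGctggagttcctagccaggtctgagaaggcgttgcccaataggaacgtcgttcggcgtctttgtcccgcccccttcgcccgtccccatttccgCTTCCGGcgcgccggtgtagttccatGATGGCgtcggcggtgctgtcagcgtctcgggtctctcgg
Uqcrh: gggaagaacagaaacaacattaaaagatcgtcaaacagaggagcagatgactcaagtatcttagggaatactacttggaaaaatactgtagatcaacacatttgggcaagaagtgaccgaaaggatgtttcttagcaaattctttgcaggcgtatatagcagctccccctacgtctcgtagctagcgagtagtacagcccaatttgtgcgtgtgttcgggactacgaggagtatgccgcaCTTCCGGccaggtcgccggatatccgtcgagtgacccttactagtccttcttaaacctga
Ndufa3: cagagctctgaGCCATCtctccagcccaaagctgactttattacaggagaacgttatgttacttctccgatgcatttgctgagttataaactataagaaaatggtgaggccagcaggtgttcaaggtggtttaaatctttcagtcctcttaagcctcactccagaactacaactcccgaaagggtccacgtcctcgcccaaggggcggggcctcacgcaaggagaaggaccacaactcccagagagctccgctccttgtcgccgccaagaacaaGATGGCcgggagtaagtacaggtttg
Atp5g1: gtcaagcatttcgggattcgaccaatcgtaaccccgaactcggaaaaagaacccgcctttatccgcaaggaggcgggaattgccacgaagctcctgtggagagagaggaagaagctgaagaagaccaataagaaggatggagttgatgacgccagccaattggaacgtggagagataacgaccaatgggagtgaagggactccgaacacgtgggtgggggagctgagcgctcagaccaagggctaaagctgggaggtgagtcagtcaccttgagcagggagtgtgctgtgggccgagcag

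Cox6a1 held the NRF1 motif in 2 places, one of them with overlapping matches on both strands, with an ETS motif nearer the start and GATGGC just after it. Uqcrh held an ETS motif, Ndufa3 held GATGGC on each strand, and none of these letters was in the windows of Atp5g1, Ndufa4 or Atp5b. Of the 68 members with a window, 27.9% held GCGCANGCG, against 6.49% of all 27025 windows and 15.2% of the 7393 windows of tested genes. CCGGAAG was in 22.1% of the members' windows, 9.14% of all and 20.6% of those of tested genes. AAGATGGCG, the longer YY1 form, was in 10.3%, 1.48% and 3.6% in the same order, and GATGGC, which it contains, in 23.5%, 14% and 15.6%. In T-bet-null minus WT, the median log2 difference was -0.22 for the 19 tested members with GCGCANGCG and -0.245 for the 48 without, and -0.245 for the 15 with CCGGAAG and -0.244 for the 52 without. The gap there was wider for AAGATGGCG, at -0.306 for the 7 with it and -0.243 for the 60 without. It was also wider for CCGGAAG in double-null minus WT, at 0.105 with and -0.012 without. No test was run on these medians. A match is a description of letters and shows no binding.

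How did the subunit genes as a group differ in each mutant? In T-bet-null cells 63 of the 80 tested lay below WT: 40 were called lower and 7 higher, with a median difference in log2(FPKM + 1) of -0.22, against -0.016 over all genes. Calls are at an adjusted p under 0.05 in limma, adjusted by the Benjamini-Hochberg method over all 10281 genes tested. Of all genes, 36.3% were called lower and 34.2% higher in this comparison, so a call alone is common here. In STAT6-null cells 31 were lower and 7 higher (36.1% and 34.9% of all genes), with a median of -0.15 against -0.009. In double-null cells 17 were lower and 19 higher (36.7% and 36.3% of all genes), with a median of 0.003 against -0.005, which was -0.070 with quantile normalization. The 3 comparisons share the WT libraries. Without WT replicate 1, 25 genes were called lower in T-bet-null cells, 20 in STAT6-null cells and 8 in double-null cells. In double-null cells 9 were lower without double-null replicate 1, 11 were higher without WT replicate 2, and 10 were higher without double-null replicate 2, whose removal gave a median of -0.083; without double-null replicate 1 the median was 0.094. With the trend over transcript length and GC content removed, T-bet-null cells had 27 lower and 15 higher (median -0.047), STAT6-null cells 25 and 14 (median -0.047) and double-null cells 18 and 28 (median 0.067). In these bulk libraries fewer cells that express a gene and less RNA per cell cannot be told apart.

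**Figure D1:**
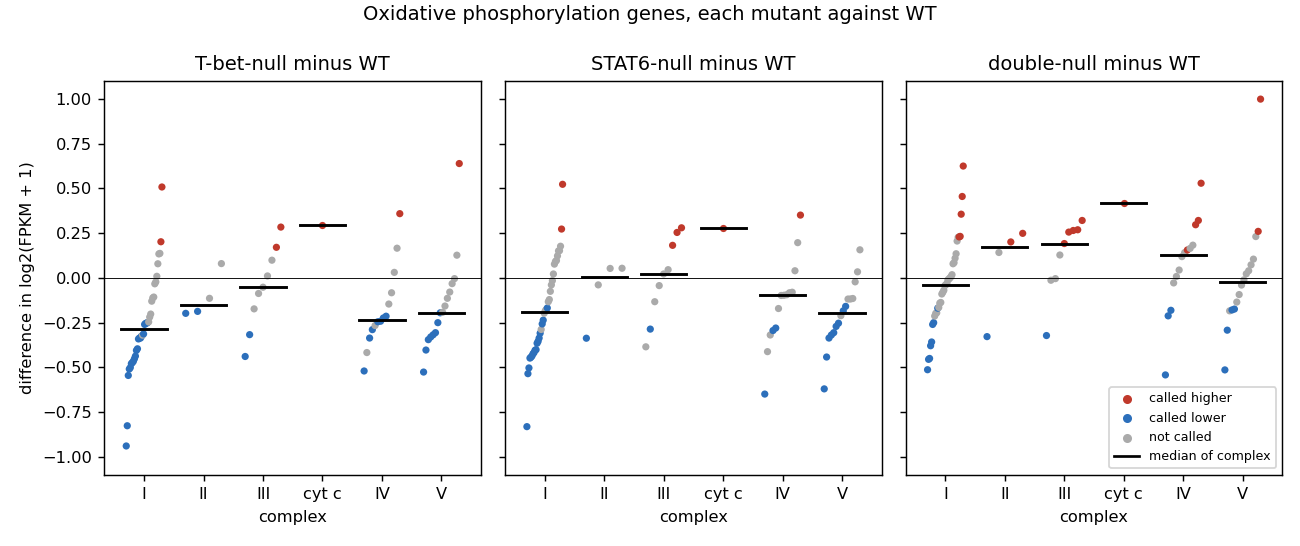
Difference in log2(FPKM + 1) of each of the 80 tested genes (points, ordered within a complex) in each of the 3 mutants minus WT, by complex. Colour gives the limma call and the bar the median of the complex; the medians of complex I lie at -0.29, -0.19 and -0.040, and cytochrome c lies above 0 in each panel.

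Complex I, which takes electrons from NADH, has 36 of the 80 tested genes. It held 21 of the 40 lower calls in T-bet-null cells, 17 of 31 in STAT6-null cells and 8 of 17 in double-null cells, so part of this follows from its size. Of its 36 genes, 21 were lower and 2 higher in T-bet-null cells (median -0.29), 17 lower and 2 higher in STAT6-null cells (median -0.19), and 8 lower and 5 higher in double-null cells (median -0.040). With the length and GC trend removed these became 16 and 6 (median -0.13), 15 and 8 (median -0.14), and 10 and 7 (median -0.019); quantile normalization gave 13 and 3 in double-null cells (median -0.145). In the main fit 58.3%, 47.2% and 22.2% of the 36 were lower, against 36.3%, 36.1% and 36.7% of all genes. Higher were 5.56%, 5.56% and 13.9%, against 34.2%, 34.9% and 36.3% of all genes. The 7 core subunits, which hold the flavin, the iron-sulfur clusters and the quinone site, had medians of -0.11, 0.022 and 0.085 in the same order, with 2 called lower in each mutant. That is 28.6% of the core genes, below the share of all genes. The 29 accessory subunits, which surround the core, had medians of -0.32, -0.24 and -0.069, with 19, 15 and 6 called lower (65.5%, 51.7% and 20.7%). The difference between core and accessory genes was not tested. Ndufv1, the core subunit that binds NADH, was named after its values were seen. It stood at 18.3 and 19.6 FPKM in T-bet-null, 15.5 and 18.99 in STAT6-null, 19.5 and 18.9 in double-null and 26.4 and 24.2 in WT libraries. All 6 mutant libraries lay below both WT libraries, with differences of -0.40, -0.54 and -0.38 (adjusted p = 0.00412, 0.000694 and 0.0048).

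Ndufa3 (chr7:3617347-3620165), a small accessory subunit of the membrane arm, had the largest fall of all the subunit genes in T-bet-null cells. It stood at 61.1 and 64.8 FPKM in T-bet-null, 84.4 and 93.6 in STAT6-null, 109 and 111 in double-null and 125 and 118 in WT libraries. The 4 genotypes did not overlap, and T-bet-null cells were the lowest. The log2 difference was -0.94 (SE 0.064, adjusted p = 3.15e-06) in T-bet-null, -0.45 (SE 0.064, adjusted p = 0.00023) in STAT6-null and -0.14 (SE 0.064, adjusted p = 0.0815) in double-null cells against WT. Ndufv3 (chr17:31520115-31531326), an accessory subunit of the NADH-binding module with long and short forms, had the largest fall of complex I in STAT6-null and double-null cells. Its level was 30.5 and 28.2 FPKM in T-bet-null, 28.5 and 29.97 in STAT6-null, 29.96 and 44.9 in double-null and 56.3 and 49.5 in WT libraries. Both WT libraries lay above the 6 mutant libraries, and double-null replicate 2 lay well above the other 5. The difference was -0.83 (SE 0.15, adjusted p = 0.00117) in T-bet-null, -0.83 (SE 0.15, adjusted p = 0.00107) in STAT6-null and -0.51 (SE 0.15, adjusted p = 0.0138) in double-null cells against WT, and the double-null call ended without WT replicate 1 (-0.42, adjusted p = 0.0909).

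Ndufab1 (chr7:122086815-122101848) went the other way. It encodes the mitochondrial acyl carrier protein, which is a subunit of complex I and also serves fatty acid synthesis and iron-sulfur cluster assembly. Its level was 24.5 and 20.9 FPKM in T-bet-null, 23.2 and 22.5 in STAT6-null, 23.7 and 25.5 in double-null and 16.1 and 15.1 in WT libraries, with all 6 mutant libraries above both WT libraries. The difference was 0.51 (SE 0.079, adjusted p = 0.000406) in T-bet-null, 0.52 (SE 0.079, adjusted p = 0.00032) in STAT6-null and 0.62 (SE 0.079, adjusted p = 9.37e-05) in double-null cells against WT. Ndufa4 had 113 and 117 FPKM in T-bet-null, 108 and 120.5 in STAT6-null, 130.1 and 148 in double-null and 153 and 139 in WT libraries. The single mutants lay below WT while the double-null libraries overlapped it, and the difference was -0.34 (SE 0.083, adjusted p = 0.00584) in T-bet-null, -0.35 (SE 0.083, adjusted p = 0.00428) in STAT6-null and -0.069 (SE 0.083, adjusted p = 0.474) in double-null cells against WT. Ndufa11, the lowest of the complex, had 5.29 and 4.75 FPKM in T-bet-null, 6.63 and 6.02 in STAT6-null, 5.55 and 6.15 in double-null and 5.73 and 5.24 in WT libraries. It was called against WT in no mutant (-0.11, 0.18 and 0.079, adjusted p = 0.277, 0.0872 and 0.416), and with the length and GC trend removed it was called higher in all 3 (0.23, 0.42 and 0.23); in STAT6-null cells it was also called with each of the other scalings (0.21 with both).

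Complex II, which couples the citric acid cycle to the chain, moved unevenly. Sdha, the flavoprotein that oxidises succinate, stood at 32.3 and 32.97 FPKM in T-bet-null, 28.2 and 30.5 in STAT6-null, 29.1 and 29.8 in double-null and 36.8 and 37.7 in WT libraries. Every mutant library lay below both WT libraries, and the difference was -0.19 (SE 0.056, adjusted p = 0.0144) in T-bet-null, -0.34 (SE 0.056, adjusted p = 0.000558) in STAT6-null and -0.33 (SE 0.056, adjusted p = 0.000604) in double-null cells against WT; the T-bet-null call ended without WT replicate 2 (-0.17, adjusted p = 0.059) and without either T-bet-null library (adjusted p = 0.0838 and 0.0512). Sdhb stood at 48.1 and 47.05 FPKM in T-bet-null, 52.5 and 54.1 in STAT6-null, 59.1 and 61.9 in double-null and 58.7 and 51.04 in WT libraries. T-bet-null cells were the lowest and double-null cells the highest. The T-bet-null fall, with a log2 difference of -0.20 (SE 0.069, adjusted p = 0.0286), did not hold without WT replicate 1 (-0.099, adjusted p = 0.189) or either T-bet-null library, nor with the length and GC trend removed (-0.038, adjusted p = 0.482). The double-null difference of 0.14 (SE 0.069, adjusted p = 0.0908) was called without WT replicate 1 (0.24, adjusted p = 0.00923). Median-of-ratios scaling also gave that call (0.175, adjusted p = 0.0261), as did removal of the trend (0.20, adjusted p = 0.00298).

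The membrane anchors of complex II, Sdhc and Sdhd, bind haem and ubiquinone. Sdhc had 26.6 and 25.1 FPKM in T-bet-null, 28.99 and 29.2 in STAT6-null, 30.8 and 36.4 in double-null and 28.2 and 27.8 in WT libraries, and the double-null libraries lay above the rest. It rose, with a log2 difference of 0.25 (SE 0.076, adjusted p = 0.0153) in double-null cells, a call lost without WT replicate 2 (0.24, adjusted p = 0.0592), without double-null replicate 2 (0.13, adjusted p = 0.0933) and under quantile normalization (0.13, adjusted p = 0.121). In T-bet-null cells Sdhc was called lower with quantile normalization (-0.19, adjusted p = 0.0306) and with the trend removed (-0.16, adjusted p = 0.0466). Sdhd had 25.7 and 26.6 FPKM in T-bet-null, 24.1 and 27.3 in STAT6-null, 26.9 and 30.2 in double-null and 25.3 and 24.1 in WT libraries. The double-null libraries lay above both WT libraries and overlapped the STAT6-null ones. It rose, with a log2 difference of 0.20 (SE 0.077, adjusted p = 0.041) in double-null cells. The call ended without WT replicate 1 (0.235) or 2 (0.167), T-bet-null replicate 1 or 2 (0.201 each) or double-null replicate 2 (0.119), and with quantile normalization (0.067, adjusted p = 0.44), and the single mutants were not called.

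Complex III and cytochrome c held genes on both sides of WT. Of the 9 genes of complex III, 2 were lower and 2 higher in T-bet-null cells (median -0.052), 1 lower and 3 higher in STAT6-null cells (median 0.022), and 1 lower and 5 higher in double-null cells (median 0.19). That is 22.2%, 11.1% and 11.1% lower and 22.2%, 33.3% and 55.6% higher, against the shares of all genes given with complex I. The T-bet-null median was 0.11 with the length and GC trend removed. Uqcrfs1 (chr13:30540312-30545316), the Rieske iron-sulfur protein at the catalytic centre, stood at 58.9 and 57.02 FPKM in T-bet-null, 56.05 and 57.4 in STAT6-null, 61.4 and 57.6 in double-null and 48.8 and 46.1 in WT libraries. All mutant libraries lay above both WT libraries, and the difference was 0.28 (SE 0.056, adjusted p = 0.00165) in T-bet-null, 0.25 (SE 0.056, adjusted p = 0.00297) in STAT6-null and 0.32 (SE 0.056, adjusted p = 0.000701) in double-null cells against WT. Uqcrc2 (chr7:120635189-120659523), a core protein of the matrix side, stood at 43.7 and 43.7 FPKM in T-bet-null, 46.5 and 47.99 in STAT6-null, 44.2 and 48.8 in double-null and 37.9 and 39.6 in WT libraries. The mutant libraries again lay above WT, and the difference was 0.17 (SE 0.060, adjusted p = 0.0295) in T-bet-null, 0.28 (SE 0.060, adjusted p = 0.00249) in STAT6-null and 0.26 (SE 0.060, adjusted p = 0.00391) in double-null cells against WT. Of the exonic bases of Uqcrc2, 19.75% are shared with Pdzd9 on the opposite strand, and the strandedness of the libraries is not stated.

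Uqcrh (chr4:116066965-116075070), whose product helps cytochrome c dock, was lower throughout. It stood at 211 and 212 FPKM in T-bet-null, 213 and 219 in STAT6-null, 207 and 215 in double-null and 271 and 257 in WT libraries. The mutant libraries lay between 207 and 219 FPKM, below both WT libraries, and the difference was -0.32 (SE 0.053, adjusted p = 0.000632) in T-bet-null, -0.29 (SE 0.053, adjusted p = 0.00111) in STAT6-null and -0.32 (SE 0.053, adjusted p = 0.000501) in double-null cells against WT. Uqcr11, a small subunit, had 34.6 and 41.2 FPKM in T-bet-null, 36.02 and 42.7 in STAT6-null, 43.5 and 60.7 in double-null and 55.6 and 47.6 in WT libraries. The T-bet-null libraries lay below both WT libraries and the double-null libraries overlapped WT. It fell, with a log2 difference of -0.44 (SE 0.16, adjusted p = 0.031) in T-bet-null cells, a call lost without WT replicate 1 (-0.33, adjusted p = 0.175), without T-bet-null replicate 1 (-0.32, adjusted p = 0.17) and with the length and GC trend removed (-0.055, adjusted p = 0.708). Cyc1, the cytochrome c1 of the complex, had 43.9 and 38.7 FPKM in T-bet-null, 41.9 and 41.1 in STAT6-null, 44.8 and 48.9 in double-null and 45.6 and 40.03 in WT libraries. It was called in none of the comparisons, and with the trend removed it was called higher in double-null cells (0.19, adjusted p = 0.00815).

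Cycs (chr6:50562563-50566569) encodes somatic cytochrome c, the carrier between complexes III and IV that also triggers apoptosis when it leaves the mitochondrion. Its level was 36.6 and 35.5 FPKM in T-bet-null, 34.4 and 37.02 in STAT6-null, 38.6 and 40.2 in double-null and 29.05 and 29.4 in WT libraries. All 6 mutant libraries lay above both WT libraries, and the WT libraries differed by little from each other. The difference was 0.29 (SE 0.056, adjusted p = 0.00137) in T-bet-null, 0.28 (SE 0.056, adjusted p = 0.00176) in STAT6-null and 0.42 (SE 0.056, adjusted p = 0.000137) in double-null cells against WT. The mouse genome holds processed copies of Cycs and of several small subunit genes, and how reads that match several places were assigned is not stated.

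Complex IV, which reduces oxygen, had 7 genes lower and 1 higher of 14 in T-bet-null cells (median -0.23), 3 lower and 1 higher in STAT6-null cells (median -0.097), and 3 lower and 4 higher in double-null cells (median 0.13). That is 50%, 21.4% and 21.4% lower and 7.14%, 7.14% and 28.6% higher. The lower genes in each mutant include Cox7a2l, the supercomplex factor, which is not a stable subunit. In STAT6-null and double-null cells the share lower was below that of all genes (36.1% and 36.7%). With the length and GC trend removed, the counts were 2 lower and 2 higher (median -0.019), 2 and 2 (median -0.002), and 2 and 6 (median 0.14), and quantile normalization gave 4 lower in T-bet-null cells (median -0.150). The single higher gene in both single mutants was Cox4nb, which is not a subunit, at 3.002 and 3.04 FPKM in T-bet-null, 3.05 and 2.94 in STAT6-null, 3.29 and 3.77 in double-null and 2.23 and 2.05 in WT libraries; its difference was 0.36 (SE 0.079, adjusted p = 0.00314) in T-bet-null, 0.35 (SE 0.079, adjusted p = 0.0034) in STAT6-null and 0.53 (SE 0.079, adjusted p = 0.000273) in double-null cells against WT. Cox4i1 (chr8:120668225-120674209), which binds ATP and sets the activity of the complex, stood at 278 and 269 FPKM in T-bet-null, 283 and 285 in STAT6-null, 299 and 309.6 in double-null and 363 and 328 in WT libraries. All mutant libraries lay below both WT libraries, in the order T-bet-null, STAT6-null, double-null. The difference was -0.34 (SE 0.061, adjusted p = 0.00106) in T-bet-null, -0.28 (SE 0.061, adjusted p = 0.00287) in STAT6-null and -0.18 (SE 0.061, adjusted p = 0.0246) in double-null cells against WT, the double-null call being lost without WT replicate 1 (-0.11, adjusted p = 0.131) and without double-null replicate 1 (-0.16, adjusted p = 0.088). With the length and GC trend removed, Cox4i1 was called in none of the 3 (-0.062, -0.086 and -0.058).

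Subunits 5a and 5b were both read. Cox5a, a nuclear-encoded subunit of the matrix side, stood at 84.5 and 72.6 FPKM in T-bet-null, 78.3 and 81.9 in STAT6-null, 79.7 and 95.6 in double-null and 71.9 and 67.5 in WT libraries. The mutant libraries lay above both WT libraries, and Cox5a was called in double-null cells at 0.32 (SE 0.096, adjusted p = 0.0141); the call ended without WT replicate 2 (0.28, adjusted p = 0.079) and without double-null replicate 2 (0.19, adjusted p = 0.0977). With the trend removed Cox5a was also called higher in T-bet-null and STAT6-null cells (0.30 and 0.29), and with median-of-ratios scaling in STAT6-null cells (0.24, adjusted p = 0.0277). Cox5b, which binds zinc, stood at 142 and 137 FPKM in T-bet-null, 152 and 156 in STAT6-null, 168 and 191 in double-null and 174 and 156 in WT libraries. The T-bet-null and STAT6-null libraries lay below both WT libraries. It fell in T-bet-null cells, with a log2 difference of -0.24 (SE 0.075, adjusted p = 0.0178), lost without WT replicate 1 (-0.16, adjusted p = 0.117) and without T-bet-null replicate 2 (-0.22, adjusted p = 0.0956). Cox6b1, which joins the monomers of the dimer, had 156 and 144 FPKM in T-bet-null, 167 and 168 in STAT6-null, 169.7 and 197 in double-null and 184 and 171 in WT libraries. The T-bet-null and STAT6-null libraries lay below both WT libraries. Cox6b1 fell in T-bet-null cells, with a log2 difference of -0.24 (SE 0.079, adjusted p = 0.0205), a call lost without WT replicate 1 (-0.19, adjusted p = 0.115), without T-bet-null replicate 2 (-0.19, adjusted p = 0.136), with quantile normalization (-0.12, adjusted p = 0.132) and with the trend removed (-0.070, adjusted p = 0.218). Cox6b2 had 0.5801 and 0.686 FPKM in T-bet-null, 0.344 and 0.993 in STAT6-null, 0.533 and 2.89 in double-null and 0.825 and 1.601 in WT libraries. Its T-bet-null libraries lay below WT, while STAT6-null and double-null libraries overlapped it. It was called in no comparison, and was called higher in double-null cells without double-null replicate 1 (0.84, adjusted p = 0.019). Cox7a1 had 1.84 and 2.19 FPKM in T-bet-null, 0.813 and 2.605 in STAT6-null, 2.24 and 2.02 in double-null and 2.37 and 2.02 in WT libraries, each mutant overlapped WT, and it was called lower in STAT6-null cells only without STAT6-null replicate 2 (-0.81, adjusted p = 0.00069).

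In the Cox7a family, Cox7a2l (chr17:83501917-83514333), the supercomplex factor, stood at 114 and 110.3 FPKM in T-bet-null, 99.9 and 105 in STAT6-null, 108 and 113 in double-null and 167 and 156 in WT libraries. The mutant libraries lay between 99.9 and 114 FPKM, well below both WT libraries, and the difference was -0.52 (SE 0.059, adjusted p = 5.58e-05) in T-bet-null, -0.65 (SE 0.059, adjusted p = 1.29e-05) in STAT6-null and -0.54 (SE 0.059, adjusted p = 3.36e-05) in double-null cells against WT. Cox7a2, the common subunit 7a, had 48.03 and 50.04 FPKM in T-bet-null, 53.5 and 54.3 in STAT6-null, 62.6 and 64.8 in double-null and 59.5 and 54.6 in WT libraries. T-bet-null libraries were the lowest and double-null libraries the highest, and neither overlapped WT. The T-bet-null difference was -0.21 (SE 0.058, adjusted p = 0.00885), lost without WT replicate 1 (-0.15, adjusted p = 0.0573) without T-bet-null replicate 1 (-0.19, adjusted p = 0.0693) and with the trend removed (-0.032, adjusted p = 0.559). The double-null difference 0.16 (SE 0.058, adjusted p = 0.0347) did not hold with quantile normalization (0.052, adjusted p = 0.419), without WT replicate 2 (0.095, adjusted p = 0.193), double-null replicate 2 (0.13, adjusted p = 0.121), or any T-bet-null or STAT6-null library (0.16 each, adjusted p = 0.0533 to 0.0554). Quantile normalization gave a lower call in STAT6-null cells (-0.16, adjusted p = 0.0283).

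Complex V, the ATP synthase, had 8 genes lower and 1 higher of 16 tested in T-bet-null cells (median -0.19), 9 lower in STAT6-null cells (median -0.20), where 0 were called higher by limma and 0 had an unadjusted p under 0.05 in that direction, and 4 lower and 2 higher in double-null cells (median -0.025, and 0.007 with median-of-ratios scaling). That is 50%, 56.2% and 25% lower and 6.25%, 0% and 12.5% higher, against the shares of all genes given with complex I. With the length and GC trend removed, 6 were lower and 3 higher in T-bet-null cells (median -0.014), 6 and 0 in STAT6-null cells (median -0.088), and 4 and 5 in double-null cells (median -0.022). In the F1 head, the catalytic Atp5b (chr10:128083307-128090388) stood at 388 and 375 FPKM in T-bet-null, 353 and 362 in STAT6-null, 404 and 433 in double-null and 356 and 343 in WT libraries. Double-null libraries were the highest, and STAT6-null libraries overlapped WT. It rose in double-null cells, with a log2 difference of 0.26 (SE 0.058, adjusted p = 0.00287); in T-bet-null cells the difference was 0.13 (SE 0.058, adjusted p = 0.0745), which passed under 5 of the 15 alternatives (0.13 to 0.21). Atp5c1 (chr2:10056030-10080510), the rotating gamma shaft, stood at 70.6 and 65.8 FPKM in T-bet-null, 64.9 and 62.8 in STAT6-null, 66.04 and 71.6 in double-null and 103 and 94.2 in WT libraries. The highest mutant library had 71.6 FPKM and the lowest WT library 94.2 FPKM, and the difference was -0.53 (SE 0.067, adjusted p = 0.000121) in T-bet-null, -0.62 (SE 0.067, adjusted p = 4.06e-05) in STAT6-null and -0.51 (SE 0.067, adjusted p = 0.000115) in double-null cells against WT.

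The peripheral stalk, which holds the head still while the shaft turns, has 4 genes here: Atp5f1, Atp5h, Atp5j and Atp5o. All 4 were lower in T-bet-null cells (median -0.33), 3 in STAT6-null (median -0.26) and 1 in double-null cells (median -0.067). Of all genes, 36.3%, 36.1% and 36.7% were lower in the same order. Atp5j, the one called in each mutant, had differences of -0.40, -0.25 and -0.29; 12.7% of its exonic bases are shared with Gabpa on the opposite strand.

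The c subunit, which forms the rotor ring in the membrane, is encoded by 3 genes whose mature proteins are identical, a property known from their sequences and not checked here. Atp5g1 (chr11:96072793-96075694) stood at 75.4 and 68.8 FPKM in T-bet-null, 42.2 and 48.3 in STAT6-null, 81.8 and 105 in double-null and 51.3 and 41.02 in WT libraries. T-bet-null and double-null libraries lay above both WT libraries, and the STAT6-null libraries lay within the WT range. The difference was 0.64 (SE 0.14, adjusted p = 0.00244) in T-bet-null, -0.022 (SE 0.14, adjusted p = 0.892) in STAT6-null and 1.00 (SE 0.14, adjusted p = 0.000141) in double-null cells against WT. Atp5g2 (chr15:102662868-102671047) had 168 and 159.7 FPKM in T-bet-null, 141 and 145 in STAT6-null, 163 and 181 in double-null and 205 and 185 in WT libraries. All mutant libraries lay below both WT libraries, STAT6-null cells the lowest, and the difference was -0.25 (SE 0.071, adjusted p = 0.012) in T-bet-null, -0.44 (SE 0.071, adjusted p = 0.000476) in STAT6-null and -0.18 (SE 0.071, adjusted p = 0.047) in double-null cells against WT. The T-bet-null call ended without WT replicate 1 (-0.18, adjusted p = 0.0794) without T-bet-null replicate 2 (-0.21, adjusted p = 0.0823) and under quantile normalization (-0.150, adjusted p = 0.0502), and with the length and GC trend removed the difference turned to 0.010 (adjusted p = 0.831). The double-null call ended without WT replicate 1 (-0.11), double-null replicate 1 (-0.10), or any T-bet-null or STAT6-null library (-0.18 each), and with the trend removed (-0.071, adjusted p = 0.131). Atp5g3 (chr2:73908447-73912464) had 117 and 109.9 FPKM in T-bet-null, 105 and 122 in STAT6-null, 114 and 146 in double-null and 132 and 114 in WT libraries, overlapped between genotypes and was called in no comparison.

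**Figure D2:**
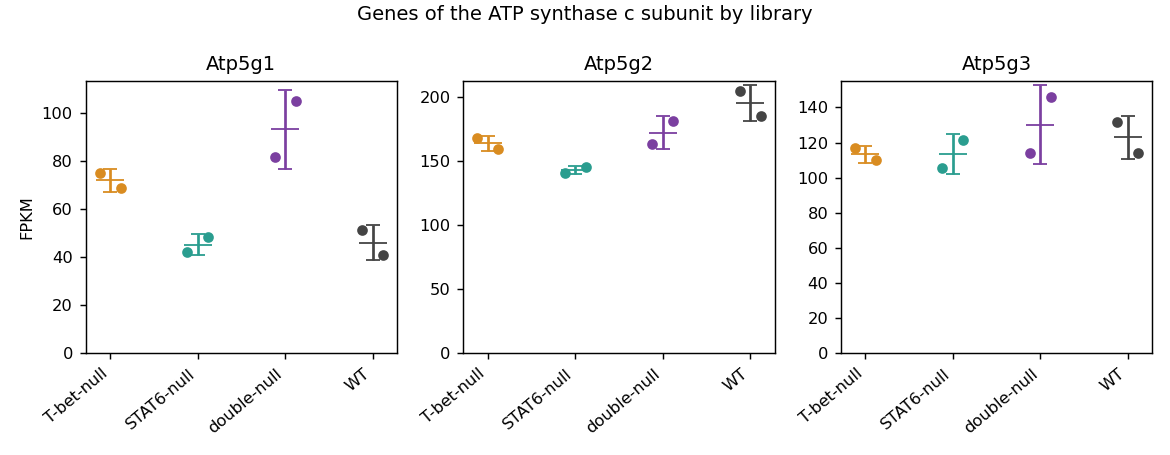
FPKM of the 3 genes of the c subunit in each library (points), with the mean and SD of the genotype (bar, n = 2). Atp5g1 lies between 68.8 and 105 FPKM in T-bet-null and double-null cells and between 41.0 and 51.3 FPKM in STAT6-null and WT cells, while Atp5g2 is highest in WT.

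How did loss of both factors compare with loss of one? In double-null cells 26 subunit genes were higher than in T-bet-null cells (16.4% of all genes were) and 0 were lower (16.2%), with a median of 0.18 against 0.009 over all genes; limma gave 1 with an unadjusted p under 0.05 in the lower direction, and no other tool was run. Against STAT6-null cells 14 were higher (11.3% of all genes) and 0 lower (8.63%), with a median of 0.15 against 0.014 and 0 with an unadjusted p under 0.05 in the lower direction. These counts leaned on the scaling and on single libraries. The 26 higher and 0 lower became 15 and 3 with quantile normalization and 15 and 5, with a median of 0.092, with the length and GC trend removed; the 14 and 0 became 16 and 1 with the trend removed (median 0.085). The 26 became 9 without double-null replicate 2, 9 without T-bet-null replicate 1 and 7 without T-bet-null replicate 2. The 14 became 4 without double-null replicate 2, 30 without double-null replicate 1, 1 and 5 without STAT6-null replicate 1 and 2, and 9 without either T-bet-null library, while the medians stayed above 0 in all 8 cases (0.12 to 0.25 and 0.075 to 0.22). Between the single mutants, STAT6-null minus T-bet-null, 2 genes were higher (12.3% of all genes) and 2 lower (14.9%), with a median of 0.047 against -0.025. The higher count was 5 without WT replicate 1 or either double-null library, 4 without WT replicate 2, and 1 without any T-bet-null or STAT6-null library. The lower count was 0 without T-bet-null or STAT6-null replicate 1 and 1 without T-bet-null replicate 2.

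Ndufa3 had the largest called rise in double-null over T-bet-null cells, 0.80 (SE 0.064, adjusted p = 7.13e-05), and Atp5g1 in double-null over STAT6-null cells, 1.02 (SE 0.14, adjusted p = 0.00138). The 2 genes higher in STAT6-null than in T-bet-null cells were Ndufa3, at 0.49 (SE 0.064, adjusted p = 0.000764), and Ndufa11, at 0.28 (SE 0.084, adjusted p = 0.0358). The 2 lower were Atp5g1, at -0.66 (SE 0.14, adjusted p = 0.00714), and Ndufb5, at -0.18 (SE 0.056, adjusted p = 0.0441). The Atp5g1 call ended without T-bet-null replicate 1 (-0.60, adjusted p = 0.0503) and without STAT6-null replicate 1 (-0.57, adjusted p = 0.0585). Ndufa12, an accessory subunit of complex I named after its values were seen, had 72.6 and 68.6 FPKM in T-bet-null, 75.6 and 75.7 in STAT6-null, 89.8 and 94.2 in double-null and 72.5 and 70.8 in WT libraries. Its double-null libraries stood above all 6 others, with 0.38 (SE 0.053, adjusted p = 0.00113) over T-bet-null and 0.28 (SE 0.053, adjusted p = 0.00743) over STAT6-null cells.

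Summed over the 81 genes, the level was 5630.4 and 5460.3 FPKM in T-bet-null, 5548 and 5770.4 in STAT6-null, 6064 and 6763 in double-null and 6661 and 6120.0 in WT libraries. T-bet-null and STAT6-null libraries lay below both WT libraries, and the double-null libraries spanned the WT range, replicate 2 being the highest of the 8. As a share of the FPKM of the library, double-null libraries had 1.3214% and 1.4277% and WT libraries 1.428% and 1.3725%. On that measure WT replicate 1 was the highest, and the single mutants were still below WT. Complex I summed to 1309 and 1299 FPKM in T-bet-null, 1353 and 1431 in STAT6-null, 1479 and 1658 in double-null and 1685 and 1536 in WT libraries. Complex IV summed to 1511 and 1434 FPKM in T-bet-null, 1529 and 1565 in STAT6-null, 1645 and 1869 in double-null and 1826 and 1682 in WT libraries. Complex V summed to 1919 and 1858 FPKM in T-bet-null, 1769 and 1845 in STAT6-null, 1997 and 2201 in double-null and 2167 and 1984 in WT libraries. In complexes I, IV and V the single mutants lay below the other 4 libraries. In complexes II and III STAT6-null replicate 2 (141.01 and 751.5 FPKM) lay above WT replicate 2 (140.7 and 748.2 FPKM).

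**Figure D3:**
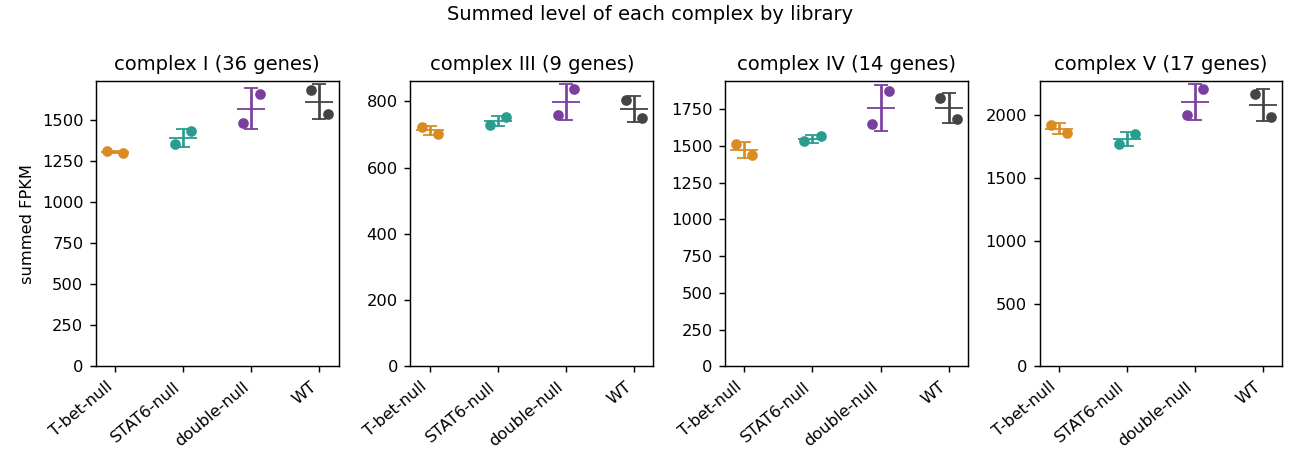
Summed FPKM of the genes of complexes I, III, IV and V in each library (points), with the mean and SD of the genotype (bar, n = 2). For complexes I, IV and V the T-bet-null and STAT6-null libraries lie below all double-null and WT libraries, and double-null replicate 2 lies above double-null replicate 1.

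The interaction asks whether losing both factors differs from the sum of the single losses on the log2 scale: it is double-null minus T-bet-null, less the difference between STAT6-null and WT. It was called positive in 44 of the 80 genes (29.6% of all genes) and negative in 2 (27.7%), with a median of 0.37 against 0.010. A positive value means that double-null cells stood above the level that the single differences from WT would add up to. The largest was 1.25 (SE 0.091, adjusted p = 1.94e-05) for Ndufa3. The 2 negative ones were Ndufab1, at -0.41 (SE 0.11, adjusted p = 0.013), and Uqcrfs1, at -0.22 (SE 0.079, adjusted p = 0.0421), both of which had risen in every mutant. Without 1 library the positive count was 33 to 52 and the negative count 1 or 2 (1 without WT replicate 2 or any T-bet-null or STAT6-null library). The median was 0.298 without WT replicate 1 and 0.285 without double-null replicate 2. With the length and GC trend removed, 28 were positive and 9 negative, with a median of 0.15. WT enters this contrast, and the WT libraries are those with the erythroid transcripts given above; their part in it was not tested.

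Most of the genes have a short transcript, a trait that the choice by symbol did not use. Each gene was given the length of its longest coding GENCODE transcript, one paired with a RefSeq record where there was any. For Atp5g1 that transcript, 4715 nt, is longer than the RefSeq gene from start to end, so its length is uncertain. The median was 863 nt in the tested members and 2966.5 nt in all 9784 tested genes with a length. Cox4nb, Ndufab1, Sdhc and Cycs were longer than the median of all genes, at 4942, 3479, 3171 and 3123 nt. Across the 80 members, the difference from WT was higher for longer transcripts. Spearman's rho was 0.34 in T-bet-null cells, 0.33 in STAT6-null cells and 0.26 in double-null cells. Over all 9784 tested genes with a length, rho was 0.11, 0.02 and -0.02 in the same order. Genes are not independent replicates and share their libraries. The 40 shorter members had medians of -0.28, -0.23 and -0.029 in the 3 comparisons, and the 40 longer ones -0.12, -0.030 and 0.12. Tested genes of any function whose length lay between the quartiles of the members, 1634 in all, had medians of -0.14, -0.075 and 0.001. With the trend over length and GC content removed from each library, the medians of the members came to -0.047, -0.047 and 0.067. Of the lower calls then made, given above, 25, 23 and 14 were the same genes as without that step.

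**Figure D4:**
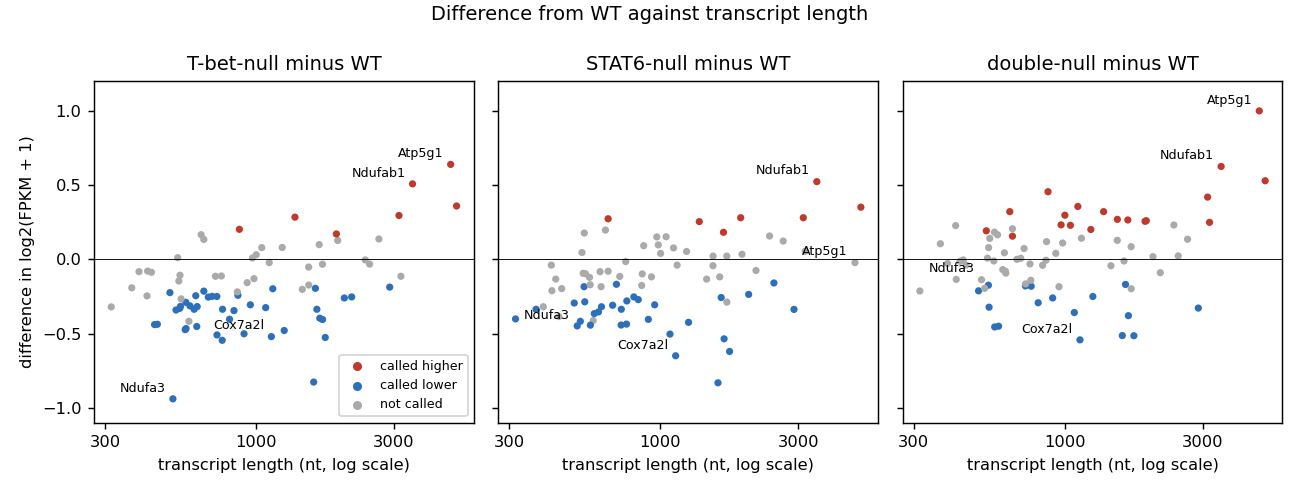
Difference in log2(FPKM + 1) from WT of each tested gene against its transcript length in nt (log axis), coloured by call. Short transcripts lie mostly below 0 in T-bet-null and STAT6-null cells, and Ndufab1, with a transcript of 3479 nt, lies above 0 in each panel.

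The genes that build and regulate the same machinery were read beside the subunits. Assembly factors, which put the complexes together and leave, had 27 of 47 listed genes in the table. Of these, 13 were higher and 5 lower in T-bet-null cells, 13 and 2 in STAT6-null cells and 13 and 5 in double-null cells, with medians of 0.16, 0.18 and 0.16. That is 48.1% higher in each mutant, with 18.5%, 7.41% and 18.5% lower, against 34.2%, 34.9% and 36.3% of all genes higher and 36.3%, 36.1% and 36.7% lower in the same order; these shares of all genes also stand behind the lists that follow. Ndufaf4, an assembly factor of complex I, stood at 9.67 and 9.84 FPKM in T-bet-null, 9.54 and 9.21 in STAT6-null, 10.6 and 10.8 in double-null and 3.52 and 3.41 in WT libraries. Its rise of 1.27, 1.22 and 1.39 (adjusted p = 4.56e-07, 4.85e-07 and 1.75e-07) left no overlap with WT. Cmc1, an assembly factor of complex IV, had 3.72 and 3.49 FPKM in T-bet-null, 2.87 and 2.76 in STAT6-null, 2.54 and 3.06 in double-null and 6.98 and 5.86 in WT libraries and fell, with differences of -0.69, -0.96 and -0.96 (adjusted p = 0.000236, 2.74e-05 and 2.18e-05).

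Regulators of the pathway and of mitochondrial DNA expression were mostly higher: 10 of 15 tested in T-bet-null cells, 11 in STAT6-null cells and 11 in double-null cells, with 2, 3 and 3 lower. Tfb2m, which starts mitochondrial transcription, stood at 14.6 and 16.6 FPKM in T-bet-null, 16.4 and 16.5 in STAT6-null, 17.8 and 19.3 in double-null and 7.698 and 7.42 in WT libraries, a rise of 0.95, 1.02 and 1.19. Peo1, the helicase Twinkle of mitochondrial DNA replication, had 6.55 and 6.62 FPKM in T-bet-null, 5.25 and 4.59 in STAT6-null, 5.798 and 6.06 in double-null and 2.05 and 2.29 in WT libraries and rose, with differences of 1.26, 0.90 and 1.13. Polg2, the accessory subunit of the mitochondrial DNA polymerase, had 2.46 and 2.99 FPKM in T-bet-null, 2.18 and 2.01 in STAT6-null, 1.88 and 2.01 in double-null and 5.89 and 4.25 in WT libraries and fell, with differences of -0.69, -0.96 and -1.03. The adjusted p of these 9 differences was at most 0.00109.

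Other large complexes did not share 1 direction. Cytosolic ribosomal proteins, also short transcripts, had 55 of 86 tested lower and 3 higher in T-bet-null cells, 75 and 3 in STAT6-null and 38 and 4 in double-null cells, with medians of -0.22, -0.31 and -0.17. Mitochondrial ribosomal proteins, which translate the subunits that mitochondrial DNA encodes, had 44 of 76 higher and 5 lower, 51 and 7, and 60 and 2 in the same order, with medians of 0.28, 0.35 and 0.48. Proteasome genes had 24 of 35 higher and 1 lower in T-bet-null cells, 29 and 0 in STAT6-null cells and 30 and 0 in double-null cells by limma (1 and 0 lower at an unadjusted p under 0.05 in STAT6-null and double-null cells), with medians of 0.30, 0.37 and 0.45. No test compared these lists with the subunit genes.

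**Figure D5:**
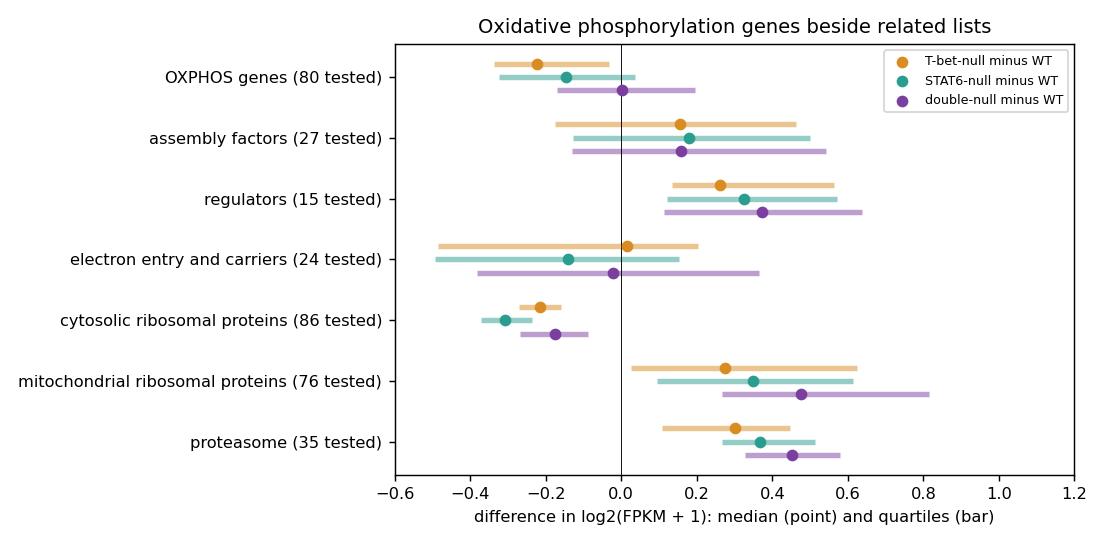
Median (point) and quartiles (bar) of the difference in log2(FPKM + 1) from WT for the oxidative phosphorylation (OXPHOS) genes and 6 other lists in each of the 3 mutants. The OXPHOS genes and the cytosolic ribosomal proteins have medians below 0 in the single mutants, and the mitochondrial ribosomal proteins and the proteasome have medians above 0 in all 3.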

How the data were processed

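The authors deposited 1 table of FPKM values (fragments scaled to transcript length and library size), with a column for each of the 8 libraries. Per the submitters' processing notes, Cufflinks and build mm10 were used, and the table's name states RefSeq; for aligner, tool versions and strand the sources used here give nothing. All 11906 lines exceeded 0.1 FPKM in all 8 libraries, so genes below that in any library are missing. For the 43 symbols on several lines the line of highest mean was kept. Depth per library is known only as a ratio, and no count test was run.

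Genes with at least 1 FPKM in at least 2 libraries (10281) were tested on log2(FPKM + 1) with limma 3.58.1 in R 4.3.3: 1 coefficient for each genotype (4 residual degrees of freedom), empirical Bayes with a trend, two-sided, Benjamini-Hochberg adjusted within each of 7 comparisons. The pseudocount of 1 understates changes of low genes. The model was first tested on simulated data. Gene positions and promoters came from RefSeq, build GRCm38.p6 (77 members matched by symbol, 4 by synonym, 68 with a promoter window); transcript lengths, GC content and exon overlaps came from GENCODE on GRCm38. Tables were read with Python 3.11.15, pandas 2.3.3 and SciPy 1.17.1.

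The members and lists were chosen with earlier results of these data known. Named genes were, in each complex, the highest and lowest gene and the largest called rise and fall in each comparison with WT; the largest over all members in the other comparisons; all of complex II, Cyc1, Cycs and isoform families; and the largest rise and fall in each list of neighbouring genes. Others are said to be named after their values were seen. One gene is not reported here by name. Alternatives were another pseudocount (0.1), no filter, a filter of 5 FPKM, 2 other scalings, removal of the length and GC trend, the replicate block and each library left out.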

Additional observations from a re-analysis of the deposited data

Results flagged for a closer look

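For 16 of the 29 named genes that were tested, losing STAT6 had a different effect with and without T-bet. These calls are by limma's interaction term at an adjusted p under 0.05 over all 10281 genes. Of all genes, 29.6% were called positive and 27.7% negative in this term, so a call alone is common here. Among the 16 genes, the interaction was positive in 14. In complex I it was 1.25 for Ndufa3, 1.14 for Ndufv3 and 0.62 for Ndufa4. In complex II it was 0.38 for Sdhb and 0.31 for Sdhc. In complex III it was 0.82 for Uqcr11 and 0.28 for Uqcrh. In complex IV it was 0.63 for Cox7a2l, 0.46 for Cox5b, 0.45 for Cox7a2, 0.43 for Cox4i1 and 0.37 for Cox6b1. In complex V it was 0.63 for Atp5c1 and 0.51 for Atp5g2. It was negative for Ndufab1 (-0.41) and Uqcrfs1 (-0.22). Values of these single-gene interactions without 1 library are not given. Double-null replicate 2 lay well above replicate 1 for Ndufv3 (44.9 against 29.96 FPKM) and Uqcr11 (60.7 against 43.5 FPKM). The cause was not tested.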

How the results depend on the processing

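Of the 315 recomputed counts and medians of the subunit genes, 261 stayed within 1.5 times the count, or within the replicate SD of the median (0.075). Removing the length and GC trend moved most: T-bet-null minus WT gave 15 higher and a median of -0.047, STAT6-null minus WT 14 higher and -0.047, double-null minus T-bet-null 15 higher, 5 lower and 0.092, double-null minus STAT6-null 1 lower, STAT6-null minus T-bet-null 6 lower, and the interaction 28 higher, 9 lower and 0.15. It also turned Ndufa11 (0.23, adjusted p = 0.01) and Atp5g2 (0.010, adjusted p = 0.831) above 0 in T-bet-null minus WT. Median-of-ratios scaling gave 11 higher in STAT6-null minus WT and 4 higher in STAT6-null minus T-bet-null. Quantile normalization gave 15 higher and 3 lower in double-null minus T-bet-null and 6 lower in STAT6-null minus T-bet-null. Without a filter 1 was lower in double-null minus STAT6-null. The causes were not tested.

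Leaving out 1 library gave 25 to 43 lower in T-bet-null and 20 to 33 in STAT6-null minus WT. In double-null minus WT it gave 10 to 26 higher, 8 to 20 lower and medians of -0.083 to 0.094. Double-null minus T-bet-null had 7 to 38 higher, double-null minus STAT6-null 1 to 30 higher, STAT6-null minus T-bet-null 1 to 5 higher and 0 to 3 lower, and the interaction 1 to 2 lower with medians of 0.29 to 0.43.

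Same-numbered libraries showed no strong shared shift: their deviations had r of -0.090 to 0.091 between genotypes. These values cannot show whether same-numbered libraries were handled together. With the replicate block, 1 gene was lower in STAT6-null minus T-bet-null, and 84 of 85 values of named genes kept their side of the threshold; the exception was Atp5g2 in double-null minus WT (adjusted p = 0.0664). Depth is known only as a ratio between libraries, so no floor can be set for low genes such as Cox6b2.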

Other observations

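Electron entry and carrier genes, which feed ubiquinone or move ADP, phosphate and metabolites, had 24 of 25 listed genes tested. In T-bet-null cells 7 were higher and 9 lower, in STAT6-null cells 6 and 12, and in double-null cells 8 and 10. That is 29.2%, 25% and 33.3% higher and 37.5%, 50% and 41.7% lower, against 34.2%, 34.9% and 36.3% of all genes higher and 36.3%, 36.1% and 36.7% lower, so these shares lay near those of all genes in T-bet-null and double-null cells. Etfb, part of the flavoprotein that takes electrons from fatty acid oxidation, stood at 17.7 and 16.2 FPKM in T-bet-null, 11.1 and 12.1 in STAT6-null, 14.6 and 17.8 in double-null and 34.3 and 26.8 in WT libraries, with falls given by differences of -0.81, -1.32 and -0.87 with no overlap with WT. Coq10b, which binds ubiquinone, had 85.6 and 89.1 FPKM in T-bet-null, 102 and 101 in STAT6-null, 121 and 110.1 in double-null and 168 and 165 in WT libraries and fell, with differences of -0.92, -0.71 and -0.53. The ubiquinone synthesis genes Coq3 and Coq4 rose in each mutant, Coq3 with differences of 0.77, 0.64 and 0.82 and Coq4 with 0.61, 0.76 and 0.96. The adjusted p of these 12 differences was at most 0.000707.

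Atp5s, the member that missed the filter, stood at 0.513 and 0.492 FPKM in T-bet-null, 0.801 and 0.669 in STAT6-null, 0.503 and 0.358 in double-null and 0.979 and 1.07 in WT libraries. The WT libraries were the highest, at levels near or below 1 FPKM.

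Pprc1, a coactivator of NRF1, named after its values were seen, stood at 53.01 and 50.9 FPKM in T-bet-null, 46.5 and 45.3 in STAT6-null, 53.4 and 56.1 in double-null and 25.7 and 27.1 in WT libraries, and Gabpa, the ETS factor named with the promoters, at 16.9 and 17.2 FPKM in T-bet-null, 16.4 and 16.9 in STAT6-null, 16.5 and 19.1 in double-null and 10.5 and 11.6 in WT libraries. Both were higher in each mutant, Pprc1 by 0.95, 0.78 and 1.02 and Gabpa by 0.58, 0.55 and 0.64. Gabpb1, from the same list of regulators, went the other way. It stood at 82.9 and 78.8 FPKM in T-bet-null, 106 and 108 in STAT6-null, 100.3 and 100.9 in double-null and 124.9 and 133.4 in WT libraries. Gabpa shares exonic bases with Atp5j on the opposite strand.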
